A study of Mus musculus with 2 samples.

Results

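Foxp3-negative CD4 T cells of 4T1 mammary tumours were read from single-cell transcript counts of a targeted immune gene panel. A cell was a member if it held at least 1 molecule of Cd3d, Cd3e or Cd3g, at least 1 of Cd4, none of Cd8a, Cd8b1 or Foxp3, at most 1 of C1qa and C1qb together, and less than 10% of its molecules from S100a8. The rule selected 191 of 12018 cells (1.59%), which were 20.3% of the 939 gated T cells and 63.9% of the gated CD4 T cells. The selection used the measured values of those 10 genes, so they describe the rule and are left out of every comparison. The tumours grew from 4T1 cells, a mouse mammary carcinoma line, placed in the mammary fat pad of female BALB/c mice aged 8 weeks. Antibody treatment began after 7 days, at a volume of about 70 mm3, in 4 arms of 6 mice, and 2 tumours per arm were dissociated. Cells bound by EPCAM beads and cells left unbound were mixed 1 to 4 before capture, so shares of all cells are shares of that mixture. One cartridge, called the anti-PD-1 pool, held the anti-PD-1 arm (clone RMP1-14) and the arm given anti-PD-1 with anti-Siglec-E, under sample tags 3 and 4. The other, called the no-anti-PD-1 pool, held the anti-Siglec-E arm and the isotype control arm under tags 1 and 2. The labels do not tie a tag to an arm, so values are given by tag, tags are not replicates, and no test was possible with 1 cartridge per pool. The antibodies given and the cartridge cannot be told apart.

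CD4 T cells recognise peptides on MHC class II and act through the cytokines and surface ligands they display. Without Foxp3, the transcription factor of regulatory T cells, they include naive and central memory cells, which carry the lymph node homing receptor CCR7 and the transcription factor TCF-1, and helper cells. Helper cells are grouped by their master regulators and cytokines: T-bet and interferon gamma in Th1, GATA3 with IL-4, IL-5 and IL-13 in Th2, IL-17 in Th17, and BCL6 and CXCR5 in follicular helper cells. The inhibitory receptor PD-1 (gene Pdcd1) appears on T cells after stimulation through the antigen receptor.

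The marker genes of the label were all present. Levels are counts per 1000000 molecules (CPM) of the 396 genes counted in every tag, with molecules summed over the cells of a tag, and are compared for 1 gene at a time. Coordinates are on GRCm38 and span the GENCODE M21 transcript that the panel names. Cd4 (chr6:124864692-124888221), the MHC class II coreceptor, had 7915 and 7912 CPM in tags 3 and 4, against 8265 and 6419 CPM in tags 1 and 2. Cd3e (chr9:44998740-45009613), a signalling chain of the T cell receptor complex, had 3439.8 and 3134 CPM in tags 3 and 4, against 3832 and 3642 CPM in tags 1 and 2. Both were part of the rule. Of the markers the rule did not use, Tcf7 (chr11:52252371-52282571), which encodes TCF-1, was found in 74% and 71.9% of the cells in tags 3 and 4, against 81.2% and 80% in tags 1 and 2. Ccr7 (chr11:99144196-99155077) was found in 61% and 56.2% of the cells in tags 3 and 4, against 62.5% and 80% in tags 1 and 2. Both shares lay far above the 0.889% and 0.831% of 5172 neutrophil-gated cells with a molecule of Tcf7 or Ccr7, a level that free RNA can give. Neutrophil-gated cells had no Cd3 molecule and at least 10% of their molecules from S100a8, and they were deeper, with a median of 1279 molecules against 619 in the members.

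The rule's thresholds cut through sparse counts. Just inside them were 6 members with a single Cd3 molecule, 23 with a single Cd4 molecule, 3 with 1 C1q molecule and 13 with 5% to 10% of their molecules from S100a8. Just outside, with every other criterion met, were 21 cells without Cd3, 294 without Cd4, 9 with 1 Cd8 molecule, 1 with 2 C1q molecules and 12 with 10% to 20% S100a8. Of the 108 Foxp3-positive CD4 T cells, 14 held a single Foxp3 molecule (gene at chrX:7579676-7595245), and Foxp3 medians per tag were 4 to 11 molecules. The members were shallow, with medians of 566 and 707.5 molecules per cell in tags 3 and 4, against 525.5 and 669 in tags 1 and 2, and totals of 98552, 26162, 13309 and 16201 molecules in tags 3, 4, 1 and 2. Of 12018 barcodes, 37 occurred in both cartridges and none of them was a member.

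Markers of several other cell types were found in members and were uneven between tags. Natural killer cell markers summed to 812 and 3019.7 CPM in tags 3 and 4, against 0 and 0 CPM in tags 1 and 2, and were found in 21 members. B cell markers summed to 40.6, 1911, 75.1 and 0 CPM in tags 3, 4, 1 and 2, in 8 members. The neutrophil list, of which S100a8 was part of the rule, reached 17514, 13340.0, 34638 and 12715 CPM, in 182 members. Macrophage markers stayed between 142 and 688 CPM with Trem2 and Apoe at 0. Dendritic cell markers summed to 10.1, 0, 0 and 2098.6 CPM in tags 3, 4, 1 and 2, in 2 members. Mast cell and basophil markers, among them Il4, which Th2 cells make too, summed to 1075.6 CPM in tag 3, in 7 members, and to 0 in the other tags, with Fcer1a at 0. Of the remaining lists, the 1 panel marker of gamma delta T cells was seen in 3 members, and Il33 and Cd34, which mark stromal cells, were at 0. Lgals1, abundant in 4T1 cells, had 36235 and 20067 CPM in tags 3 and 4, against 23969 and 17962 CPM in tags 1 and 2. The part that RNA or cells of these other types play in the gene levels below was not tested.

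Foxp3-negative CD4 T cells were a larger share of all cells in the anti-PD-1 pool than in the no-anti-PD-1 pool, while their share of T cells and of CD4 T cells overlapped between the pools. They numbered 123 and 32 in tags 3 and 4, against 16 and 20 in tags 1 and 2. As shares of all cells these were 1.86% (exact Clopper-Pearson 95% interval 1.55 to 2.21) and 2.20% (1.51 to 3.09) in tags 3 and 4, against 0.658% (0.377 to 1.07) and 1.32% (0.808 to 2.03) in tags 1 and 2. Intervals here and below cover counting error only. The equal-weight pool means were 2.03% and 0.989%, a difference of 1.04 points. The tags did not overlap between pools, but the interval of tag 2 overlapped those of tags 3 and 4. Among gated T cells the shares were 23.2% and 15.7% in tags 3 and 4, against 13.6% and 23.0% in tags 1 and 2. Among gated CD4 T cells they were 69.1% and 51.6%, against 55.2% and 66.7%. Within each pool, 1 tag was high and 1 low in both of these shares.

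**Figure D1:**
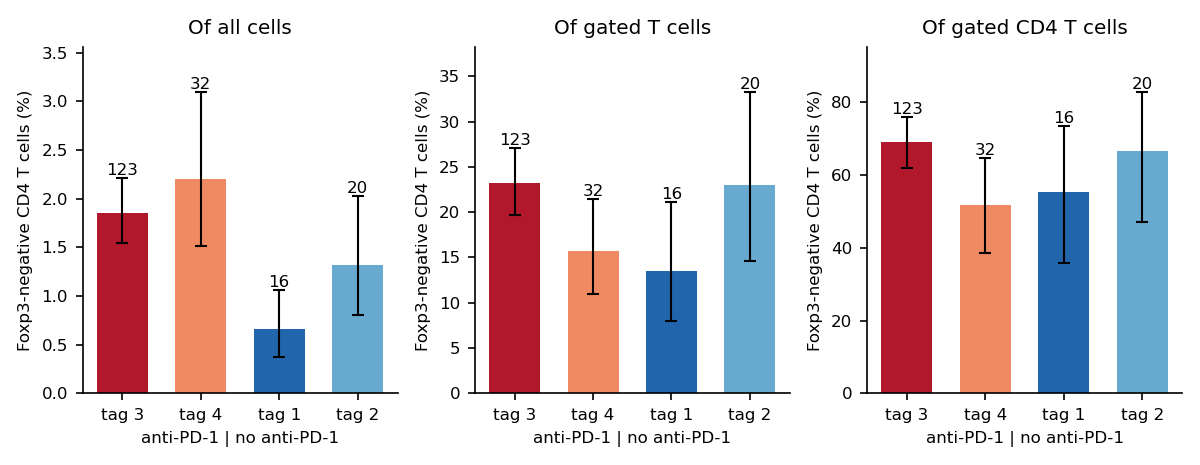
Share of Foxp3-negative CD4 T cells (percent, vertical axes from 0) in each tag, among all cells, among gated T cells and among gated CD4 T cells. Bars are exact 95% intervals for counting error; among all cells tags 3 and 4 (1.86% and 2.20%) lie above tags 1 and 2 (0.658% and 1.32%), and in the other panels the pools overlap.

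Most members held transcripts of Tcf7 and Ccr7, and most also held transcripts of costimulatory receptors. Over all tags, Tcf7 was found in 143 of 191 members (74.9%), Ccr7 in 119 (62.3%), and Il7r, the receptor for the survival cytokine IL-7, in 67.5%. Cd28, the main costimulatory receptor of naive T cells, was found in 81.2% of members, with 3886 and 4472 CPM in tags 3 and 4, against 4283 and 4506 CPM in tags 1 and 2. Icos, an inducible costimulator, was found in 77.5%, and the TNF receptor family members Tnfrsf4 (OX40) and Tnfrsf18 (GITR) in 79.6% and 89.5%. The early activation gene Cd69 was found in 88% of members. In neutrophil-gated cells the shares were 1.08% for Il7r, 0.812% for Cd28, 0.561% for Icos, 2.01% for Tnfrsf4, 1.24% for Tnfrsf18 and 12.3% for Cd69.

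Some inhibitory receptors were frequent and others were not. Btla and Havcr2 were found in 15.7% and 12.6% of members, and Lag3 and Cd160 had 0 molecules in members. Ctla4, which competes with CD28 for its ligands, was found in 72.4% and 68.8% of the cells in tags 3 and 4, against 62.5% and 70% in tags 1 and 2. Its level was 7833 and 6269 CPM in tags 3 and 4, against 3907 and 10740.1 CPM in tags 1 and 2, and a single cell of tag 3 held 183 of that tag's 772 molecules. Pdcd1 was found in 41.5% and 65.6% of the cells in tags 3 and 4, against 43.8% and 30% in tags 1 and 2, and Tigit, another inhibitory receptor, in 56.9% and 46.9% of the cells in tags 3 and 4, against 56.2% and 40% in tags 1 and 2. Tcf7 and Pdcd1 were found together in 56 members (29.3%). Pdcd1 and Cxcr6, a chemokine receptor of tissue T cells, were found together in 52 members (27.2%), against 9 of 108 Foxp3-positive cells (8.33%) and 164 of 268 CD8 T cells (61.2%). Those cells were deeper, with medians of 843 and 1055.5 molecules per cell; with every cell thinned to 350 molecules, which left out 18 members, 1 Foxp3-positive and 7 CD8 T cells, the shares were 19.7%, 2.80% and 46.4%. In neutrophil-gated cells Ctla4, Pdcd1, Tigit and Cxcr6 were found in 1.8%, 0.329%, 1.24% and 0.387%.

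Helper programmes were present to unequal extents. Any of Tbx21 (T-bet), Ifng and Cxcr3, which mark Th1 cells, was found in 88 members (46.1%), against 63 of 108 Foxp3-positive cells (58.3%) and 242 of 268 CD8 T cells (90.3%). Gata3 was found in 81 members (42.4%), against 42 Foxp3-positive cells (38.9%) and 51 CD8 T cells (19.0%). Any of the Th2 cytokine genes Il4, Il5 and Il13 was found in 21 of 191 members (12, 8, 1 and 0 cells in tags 3, 4, 1 and 2), against 2 of 108 Foxp3-positive cells and 3 of 268 CD8 T cells. After the same thinning, the Th1 genes were found in 38.7% of Foxp3-negative, 40.2% of Foxp3-positive and 72.8% of CD8 T cells, and Gata3 in 26.6%, 15.0% and 6.13%. Il1rl1, the receptor for the alarmin IL-33, was found in 57 members (29.8%), and 12 members held both Il1rl1 and Il5; these 12 were all the members with Il5. Cxcr5 or Bcl6 was found in 39 members (20.4%). Cxcr5 alone was found in 8.38% of members against 1.99% of neutrophil-gated cells, but Bcl6 in 12.0% against 14.4%. Few members carried Th17 cytokine genes: Il17a, Il17f or Il22 was found in 3 members. Il2, the T cell growth factor, was found in 1 member. In neutrophil-gated cells the shares were 0.715% for Tbx21, 0.348% for Ifng, 1.18% for Cxcr3, 1.16% for Gata3, 0.0387% for Il13 and 0.909% for Il1rl1, and Il5 was found in 0 of 5172, which allows a share of up to 0.0580% (3 counts of the total).

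Some cytokine totals came from very few cells. In tag 3, 1 member with 6514 molecules held 966 of the tag's 993 Il13 molecules, 95 of 105 of Il4, 107 of 145 of Il10 and 143 of 203 of Il2ra. That cell had 73 Cd4, 37 Cd3g and 9 Cd3e molecules, 6 of Gata3, 831 of Lgals1 and 329 of Spp1. Of the mast cell and basophil markers on the panel it held Il4, as given, and no Cpa3 or Fcer1a. Csf2, which encodes the myeloid growth factor GM-CSF, had 609 and 4166 CPM in tags 3 and 4, against 5034 and 432 CPM in tags 1 and 2. A single cell held 99 of the 109 Csf2 molecules of tag 4, and another held all 67 of tag 1.

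**Figure D2:**
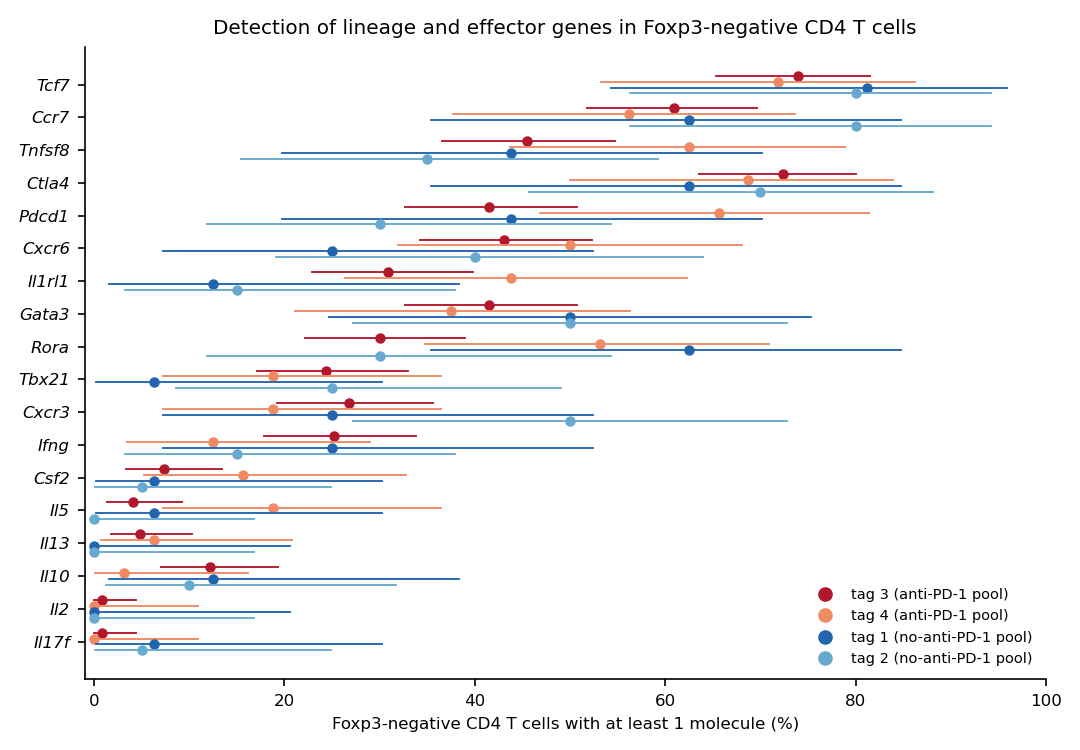
Percent of Foxp3-negative CD4 T cells with at least 1 molecule of each lineage and effector gene shown, 1 point per tag with its exact 95% interval as a line (horizontal axis from 0). Tcf7, Ccr7 and Ctla4 lie between 56.2% and 81.2% in every tag, and Il2 and Il17f lie at or near 0. In tag 4, Pdcd1 (65.6%) and Tnfsf8 (62.5%) lie above Ccr7 (56.2%).

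Members with and without Ccr7 differed in other genes; this split was chosen after values had been seen and is given without a test. Ccr7 was absent from 72 members, present as a single molecule in 17 and as 2 or more in 102. In tag 3, the only tag with over 20 cells on each side, Tcf7 was found in 86.7% of cells with Ccr7 and 54.2% of cells without it. Il7r was found in 80% and 47.9%, and Trat1, an adaptor of the T cell receptor complex, in 34.7% and 6.25%. In the other direction, Pdcd1 was found in 28% of cells with Ccr7 and 62.5% of cells without it, Cxcr6 in 26.7% and 68.8%, and Havcr2, which encodes the inhibitory receptor TIM-3, in 6.67% and 27.1%. Tnfsf8, the CD30 ligand, was found in similar shares, 46.7% and 43.8%. In tag 4, with 18 and 14 cells, Pdcd1 was found in 44.4% of cells with Ccr7 and 92.9% of cells without, while Cxcr6 was at 50% in both. Il7r was found in 72.2% of cells with Ccr7 and 78.6% of cells without in tag 4, the other way from tag 3. Ctla4 also went opposite ways, at 65.3% with Ccr7 and 83.3% without in tag 3, and 83.3% with and 50% without in tag 4. Tags 1 and 2 held 10 and 16 cells with Ccr7, against 6 and 4 without. Median depth in tag 3 was 550 molecules in cells with Ccr7 and 636 in cells without.

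Between the pools, the cytotoxic effector genes Gzma, Ccl5 and Ctsw, the checkpoint gene Pdcd1 and the homing receptors Cxcr6 and Ccr8 were higher in the anti-PD-1 pool, Gata3, Irf4 and Fasl were lower, and no gene of the naive list or of the T cell receptor list was called. A gene with at least 30 molecules was called if the lower tag of 1 pool exceeded the higher tag of the other by 1.5-fold or more. Of 236 measured genes, 17 were higher (7.2%) and 6 lower (2.54%) in the anti-PD-1 pool. With median-of-ratios scaling 12 were higher and 7 lower. Without the size criterion the tags of the pools did not overlap for 38 higher genes (16.1%) and 47 lower genes (19.9%). The median log2 ratio over all 236 genes was -0.07. Many of the calls rest on few cells: with the cell richest in each gene left out of each tag, 5 of the 17 higher and 4 of the 6 lower genes kept their call, and Gzma, Ccl5, Ccr8 and Gata3 were among those that lost it. Only 4 higher genes (Gzma, Xcl1, Cxcr6 and Ccl5) and 1 lower gene (Lgals3) had counting intervals that did not overlap between the nearest tags. Of these genes, only Cxcr6 kept its call without the richest cells. The natural killer cell markers given above moved with this comparison, but most of their sum was Xcl1, itself a called gene. Xcl1 made up 497 of 812 CPM in tag 3 and 2446 of 3019.7 CPM in tag 4, so the sum is not independent of that gene. The other markers of the list (Eomes, Klrk1, Klra1 and Klra7, with 24, 19, 2 and 1 molecules) were also seen only in tags 3 and 4. Their part in this comparison was not tested.

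The cytotoxic effector list had 3 of 10 measured genes higher and 1 lower, with a median log2 ratio of 0.73. Gzma, a granule protease, had 1299 and 1147 CPM in tags 3 and 4, against 150.3 and 61.7 CPM in tags 1 and 2. The ratio of summed molecules was 12.5 (95% interval 4.19 to 61.1), but 1 cell held 61.5% of its molecules, and without the richest cell of each tag the log2 ratio was -0.30. Ctsw, a protease of cytotoxic lymphocytes, had 2039.5 and 4663 CPM in tags 3 and 4, against 751 and 1173 CPM in tags 1 and 2, with 29 molecules in the no-anti-PD-1 pool and a ratio of summed molecules of 2.64 (95% interval 1.8 to 4). It was found in 44.7% and 31.2% of the cells in tags 3 and 4, against 18.8% and 40% in tags 1 and 2. Cst7, an inhibitor of granule proteases outside the list, had 802 and 1032 CPM in tags 3 and 4, against 150.3 and 494 CPM in tags 1 and 2, a log2 ratio of 1.51. Ccl5, a chemokine that attracts T cells and monocytes, had 4515 and 5122 CPM in tags 3 and 4, against 3005 and 988 CPM in tags 1 and 2, with 32.9% of molecules in 1 cell. Fasl, the death ligand, went the other way, at 315 and 344 CPM in tags 3 and 4, against 751 and 679 CPM in tags 1 and 2. Of these 5 genes, Ctsw, Cst7 and Fasl kept the call without the richest cells, and Cst7 lost it with median-of-ratios scaling.

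Pdcd1, Cxcr6 and Ccr8 were also higher. Pdcd1 had 2973 and 3746 CPM in tags 3 and 4, against 1052 and 1913 CPM in tags 1 and 2, a log2 ratio of 1.18. It was the only 1 of 9 measured inhibitory receptor genes that was called. Cxcr6 had 3836 and 4510.4 CPM in tags 3 and 4, against 1428 and 2099 CPM in tags 1 and 2, a log2 ratio of 1.24, and was 1 of 10 measured Th1 genes called higher. Both kept the call without the richest cells, and both lost it when cells with Il2ra or Ikzf2 were left out; Pdcd1 also lost it with median-of-ratios scaling. Ccr8, a chemokine receptor of tissue T cells and of tumour regulatory T cells, had 335 and 1261 CPM in tags 3 and 4, against 75.1 and 123 CPM in tags 1 and 2. With 3 molecules in the no-anti-PD-1 pool, the ratio of summed molecules was 5.21 (95% interval 1.71 to 25.9), and the call was lost without the richest cells.

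Other called genes had small counts or came from few cells. Il5, the eosinophil growth factor, had 284 and 917 CPM in tags 3 and 4, against 75.1 and 0 CPM in tags 1 and 2, with 52 molecules in 11 cells against 1 molecule, a ratio of summed molecules of 12.3 (95% interval 2.11 to 495); the call was lost without the richest cells. Xcl1, a chemokine for dendritic cells and one of the natural killer cell markers, had 497 and 2446 CPM in tags 3 and 4, against 0 and 0 CPM in tags 1 and 2. Against a floor of 3 counts in each tag at 0, the log2 ratio was at least 2.84, and 1 cell held 32.7% of its molecules. Xcl1 was found in 8 members. It lost the call without the richest cells, and also without cells of B cell, macrophage or high Lgals1 signal. Mki67, a proliferation antigen, had 578 and 879 CPM in tags 3 and 4, against 150.3 and 247 CPM in tags 1 and 2, with 24.4% of molecules in 1 cell. It and Ube2c were the 2 of 7 measured proliferation genes that were higher, and both lost the call without the richest cells; without members holding Il2ra or Ikzf2, the log2 ratio of Mki67 was -1.36. Igkc, an immunoglobulin light chain gene of B cells, had 558 and 1223 CPM in tags 3 and 4, against 0 and 247 CPM in tags 1 and 2, with 46.2% of molecules in 1 cell. Lyn, a kinase of B and myeloid cells, had 669.7 and 612 CPM in tags 3 and 4, against 75.1 and 309 CPM in tags 1 and 2, and the neutrophil chemokine Cxcl1 had 254 and 535 CPM in tags 3 and 4, against 150.3 and 123 CPM in tags 1 and 2. These last genes were found in smaller shares of members (15.2% and 6.81%) than of neutrophil-gated cells (75.7% and 19.3%), and 1 cell held 39.5% of the Cxcl1 molecules.

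Lower in the anti-PD-1 pool were 2 transcription factors of helper cells. Gata3, the regulator of Th2 cells, had 893 and 726 CPM in tags 3 and 4, against 1428 and 1419.7 CPM in tags 1 and 2, a log2 ratio of -0.81 and a ratio of summed molecules of 0.603 (95% interval 0.418 to 0.883). Irf4, which is induced by antigen receptor signals, had 112 and 191 CPM in tags 3 and 4, against 451 and 617 CPM in tags 1 and 2, a ratio of summed molecules of 0.237 (95% interval 0.111 to 0.505) over only 32 molecules. Within the Th2 list of 6 measured genes, Il5 was thus higher and Gata3 lower. Cd1d1, which presents lipids, had 274 and 76.4 CPM in tags 3 and 4, against 526 and 617 CPM in tags 1 and 2, and Fam65b, an inhibitor of the GTPase RhoA, had 436 and 497 CPM in tags 3 and 4, against 902 and 864 CPM in tags 1 and 2. Lgals3, which encodes galectin-3, had 4139.9 and 3325 CPM in tags 3 and 4, against 8265 and 6666 CPM in tags 1 and 2. Gata3 and Lgals3 lost the call without the richest cells. The intervals of Lgals3 did not overlap between pools, but it was found in 45.5% of members against 80.5% of neutrophil-gated cells.

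**Figure D3:**
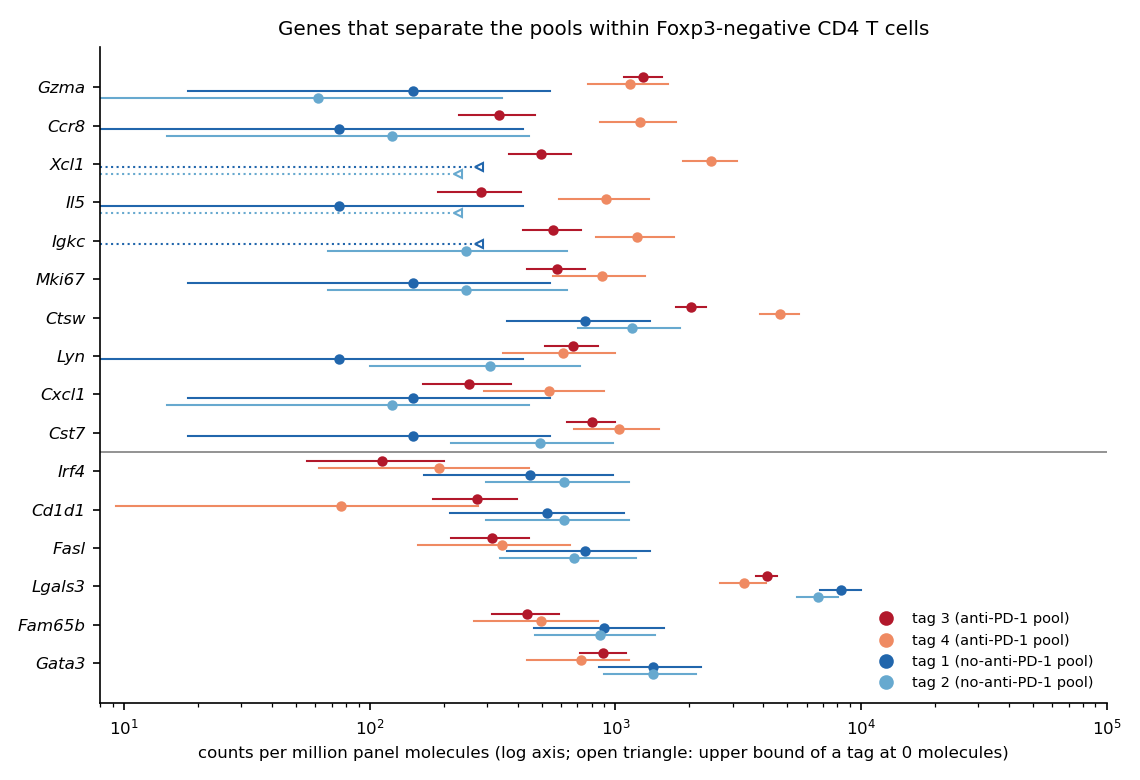
CPM of the 16 named genes that separate the pools within Foxp3-negative CD4 T cells (log axis), 1 point per tag with its Poisson 95% interval, the genes higher in the anti-PD-1 pool above the line and those lower below it. Open triangles are upper bounds of tags at 0 molecules; for most genes the intervals of the nearest tags overlap, and for Gzma, Xcl1 and Lgals3 they do not.

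The naive and central memory list had 0 of 7 measured genes called in either direction, with a median log2 ratio of -0.40. Ccr7 had 7164 and 7606 CPM in tags 3 and 4, against 7138 and 13024 CPM in tags 1 and 2, and Tcf7 had 5571 and 4166 CPM in tags 3 and 4, against 6612 and 6234 CPM in tags 1 and 2. Tag 2 stood highest for Ccr7 and tag 4 lowest for Tcf7, and in both genes the pools overlapped or were less than 1.5-fold apart. The share of members with Ccr7 averaged 58.6% in the anti-PD-1 pool and 71.2% in the no-anti-PD-1 pool. It was 61.0% and 56.2% in tags 3 and 4, against 62.5% and 80% in tags 1 and 2. The tags did not overlap, but tags 3 and 1 lay close together, at 75 of 123 and 10 of 16 cells. The share with Ccr7 alone was not planned in advance. After thinning to 350 molecules per cell, Ccr7 was found in 53.7% and 46.7% of members in tags 3 and 4, against 62.5% and 84.2% in tags 1 and 2. The T cell receptor list (0 of 12 measured), the costimulation list (0 of 9), the immediate early and NF-kappaB list (0 of 8) and the interferon list (0 of 3) had no gene called either.

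Set against Foxp3-positive CD4 T cells of the same tags, Foxp3-negative cells had higher levels of Tcf7, Tnfsf8, Bcl2, Ifng and Cxcr6 and lower levels of Il2ra, Ikzf2, Itgae and Gzmb. A gene was called if its ratio was at least 1.5-fold in the same direction in all 4 tags, with at least 30 molecules over both classes. Of 274 measured genes, 26 were higher (9.49%) and 14 lower (5.11%) in Foxp3-negative cells, and the median log2 ratio was -0.10. With median-of-ratios scaling 21 were higher and 13 lower, and that median was -0.25. Markers of other cell types differed between the classes. Macrophage markers summed to 142, 688, 150.3 and 432 CPM in Foxp3-negative cells of tags 3, 4, 1 and 2, against 20002, 7073, 84.0 and 1173 CPM in Foxp3-positive cells of the same tags. Lgals1 had 36235, 20067, 23969 and 17962 CPM in Foxp3-negative cells, against 28699.5, 26268, 89894 and 21707 CPM in Foxp3-positive cells. Their part in the calls below was not tested, beyond leaving out cells with B cell, macrophage or high Lgals1 signal, after which 17 of the 26 higher and 9 of the 14 lower genes kept the call. Foxp3-positive cells numbered 55, 30, 13 and 10 in tags 3, 4, 1 and 2, and were deeper, with medians of 773, 773.5, 980 and 2291 molecules per cell.

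Tnfsf8 (chr4:63831308-63861347), which encodes CD30 ligand, a TNF family ligand of activated T cells, stood out. It had 3450.0, 4243, 3982 and 1975 CPM in tags 3, 4, 1 and 2, against 40.5, 81, 0 and 0 CPM in the Foxp3-positive CD4 T cells of the same tags. With all tags summed this was 536 molecules against 6, a ratio of 94.9 (95% interval 43.3 to 259.8). It was found in 90 of 191 Foxp3-negative cells, 5 of 108 Foxp3-positive cells (41.0% and 2.80% after thinning to 350 molecules per cell) and 0.271% of neutrophil-gated cells. Its receptor gene Tnfrsf8, encoding CD30, was called in the other direction, with 101, 0, 0 and 0 CPM in tags 3, 4, 1 and 2, against 365, 243, 546 and 483 CPM in the Foxp3-positive CD4 T cells of the same tags, but was found in 2.09% of members against 2.44% of neutrophil-gated cells.

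Tcf7 and the survival gene Bcl2 were higher in Foxp3-negative cells. Tcf7 had 5571, 4166, 6612 and 6234 CPM in tags 3, 4, 1 and 2, against 311, 539.9, 0 and 311 CPM in the Foxp3-positive CD4 T cells of the same tags, a ratio of summed molecules of 17.3 (95% interval 13.1 to 23.4). It was found in 143 of 191 Foxp3-negative cells and 17 of 108 Foxp3-positive cells, or 63.6% and 15.0% after thinning. Bcl2, which blocks apoptosis, had 852, 1376, 601 and 1543 CPM in tags 3, 4, 1 and 2, against 67.5, 162, 42 and 0 CPM in the Foxp3-positive CD4 T cells of the same tags. Mbp, which encodes myelin basic protein, had per-tag ratios of 2.77 to 6.9. In the naive list 2 of 7 measured genes were higher, Tcf7 and Il7r, and none was lower; Il7r lost the call with median-of-ratios scaling. Ccr7 was not among them, with 7164, 7606, 7138 and 13024 CPM in tags 3, 4, 1 and 2, against 2809, 3537, 6718 and 5556 CPM in the Foxp3-positive CD4 T cells of the same tags.

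Of 12 measured Th1 genes, 5 were higher (Ifng, Stat4, Cxcr6, Il12rb2 and Il18rap). Ifng, the defining Th1 cytokine, had 1400.3, 956, 1503 and 1173 CPM in tags 3, 4, 1 and 2, against 243, 54, 0 and 0 CPM in the Foxp3-positive CD4 T cells of the same tags, a ratio of summed molecules of 10.7 (95% interval 6.77 to 17.9). Cxcr6 had 3836, 4510.4, 1428 and 2099 CPM in tags 3, 4, 1 and 2, against 581, 324, 209.9 and 759 CPM in the Foxp3-positive CD4 T cells of the same tags. Il12rb2, a chain of the IL-12 receptor, had 65 molecules against 7, a ratio of 9.87 (95% interval 4.53 to 25.5). Fasl had 61 molecules against 3, a ratio of 21.6 (95% interval 7.05 to 108), and was at 0 in the Foxp3-positive cells of 3 tags. Ccl5 was higher by 3.67 to 7.95-fold across tags, with 32.9% of the members' molecules in 1 cell.

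The regulatory T cell list had 4 of 15 measured genes lower (Il2ra, Ikzf2, Tnfrsf9 and Itgae) and none higher. Il2ra, which encodes the IL-2 receptor alpha chain CD25, had 2059.8, 1185, 1352 and 1111 CPM in tags 3, 4, 1 and 2, against 3363, 3591, 3905 and 6074 CPM in the Foxp3-positive CD4 T cells of the same tags, and 53% of the members' molecules came from 1 cell. Ikzf2, the transcription factor Helios, had 183, 306, 301 and 494 CPM in tags 3, 4, 1 and 2, against 1513, 1944, 1679 and 897 CPM in the Foxp3-positive CD4 T cells of the same tags. Either gene was found in 57 of 191 Foxp3-negative cells (29.8%), against 97 of 108 Foxp3-positive cells (89.8%), or 22.5% and 72.0% after thinning. Itgae, the integrin CD103, had 162, 612, 0 and 0 CPM in tags 3, 4, 1 and 2, against 2971, 3509.6, 1469.5 and 2933 CPM in the Foxp3-positive CD4 T cells of the same tags, with 43.8% of the members' molecules in 1 cell. Gzmb, a granule protease that activated regulatory and CD8 T cells make, had 873, 535, 451 and 432 CPM in tags 3, 4, 1 and 2, against 5767, 4293, 5416 and 5487 CPM in the Foxp3-positive CD4 T cells of the same tags, a ratio of summed molecules of 0.137 (95% interval 0.112 to 0.167). Klrg1, a receptor of terminally differentiated cells, had 81.2, 497, 902 and 247 CPM in tags 3, 4, 1 and 2, against 3052, 1971, 3485 and 1622 CPM in the Foxp3-positive CD4 T cells of the same tags, with 27% of the members' molecules in 1 cell.

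The chemokine receptors Ccr2 and Ccr6 were lower too, with per-tag ratios of 0.192 to 0.407 for Ccr2. Ccr6 had 2 molecules in 2 members against 30, a ratio of 0.0708 (95% interval 0.0082 to 0.279). Cxcl1 had 254, 535, 150.3 and 123 CPM in tags 3, 4, 1 and 2, against 5159, 3672, 1259.6 and 12803 CPM in the Foxp3-positive CD4 T cells of the same tags; it is a neutrophil chemokine and was found in 19.3% of neutrophil-gated cells. Cxcl1 lost the call without the 5% of gated T cells with the most molecules, and also without cells of B cell, macrophage or high Lgals1 signal. Ctla4 was not called, since tag 2 had 10740.1 CPM in Foxp3-negative cells and 12182 CPM in Foxp3-positive cells. Pdcd1 was not called either and was found in 85 of 191 Foxp3-negative cells and 51 of 108 Foxp3-positive cells, or 38.2% and 29.0% after thinning. Without the richest cell of each gene and tag, Ccl5, Il12rb2, Ccr6 and Tnfrsf8 lost their calls, and Ccr6 changed direction, to a log2 ratio of 0.17.

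**Figure D4:**
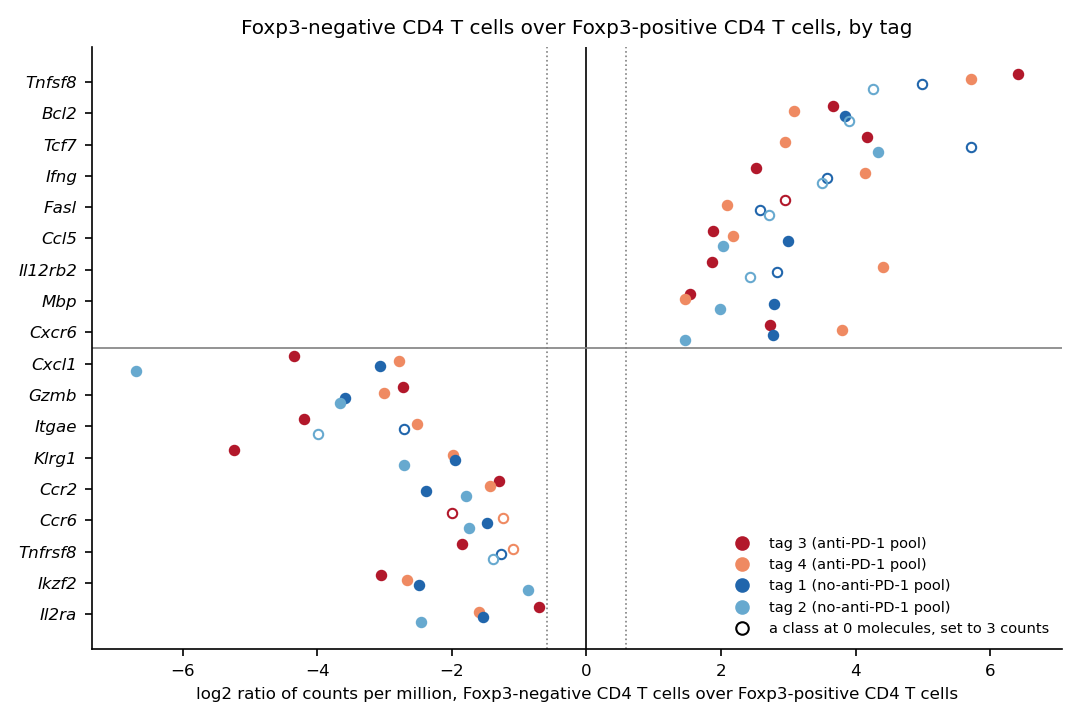
Log2 ratio of CPM in Foxp3-negative over Foxp3-positive CD4 T cells for named genes, 1 point per tag, with 0 meaning equal levels. Open symbols mark a class at 0 molecules, set to 3 counts; every Tnfsf8 point lies at a ratio of 19.1 or more, and the points of Cxcl1, Gzmb and Itgae lie left of 0 in all 4 tags.

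Set against CD8 T cells of the same tags, Foxp3-negative CD4 T cells had higher levels of Tnfsf8, Tnfrsf4, Ccr7, Tcf7 and Gata3 and lower levels of Gzma, Gzmb, Nkg7, Pdcd1 and Mki67. Of 284 measured genes, 38 were higher (13.4%) and 27 lower (9.51%), with a median log2 ratio of 0.26. Lgals1 had 36235, 20067, 23969 and 17962 CPM in Foxp3-negative cells of tags 3, 4, 1 and 2, against 33068, 41211, 65747 and 35396 CPM in CD8 T cells of the same tags. Mast cell and basophil markers summed to 1075.6, 0, 0 and 0 CPM in Foxp3-negative cells, against 0, 296, 0 and 20587 CPM in CD8 T cells, in 2 CD8 T cells. Without cells of B cell, macrophage or high Lgals1 signal, 32 of the 38 higher and 24 of the 27 lower genes kept the call. CD8 T cells numbered 160, 73, 19 and 16 in tags 3, 4, 1 and 2, with medians of 1016, 1116, 1655 and 1118 molecules per cell. With median-of-ratios scaling the median log2 ratio moved to 0.10 and the split to 30 higher and 32 lower genes, so the share of higher genes among those called was 58.5% with CPM and 48.4% with median-of-ratios scaling.

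In the naive list Ccr7, Tcf7, Bach2 and Il7r were higher, and no gene was lower. Ccr7 had 7164, 7606, 7138 and 13024 CPM in tags 3, 4, 1 and 2, against 1606, 567, 1549.9 and 2681 CPM in the CD8 T cells of the same tags, a ratio of summed molecules of 5.73 (95% interval 5.17 to 6.36). Tcf7 had 5571, 4166, 6612 and 6234 CPM in tags 3, 4, 1 and 2, against 2226, 1067, 775 and 2425.7 CPM in the CD8 T cells of the same tags. It lost the call when every cell was given equal weight. Bach2, a repressor of effector genes, had 34 molecules against 18, a ratio of 4.73 (95% interval 2.6 to 8.9).

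Among surface receptors and ligands, Tnfsf8 had 3450.0, 4243, 3982 and 1975 CPM in tags 3, 4, 1 and 2, against 61, 16.9, 0 and 31.9 CPM in the CD8 T cells of the same tags, and was found in 12 of 268 CD8 T cells. Tnfrsf4, encoding OX40, had 5642, 5275, 5635 and 5864 CPM in tags 3, 4, 1 and 2, against 412, 829.8, 500.0 and 1181 CPM in the CD8 T cells of the same tags. The costimulation list had 4 of 10 measured genes higher (Cd28, Tnfrsf4, Tnfrsf18 and Tnfsf8) and none lower. Nrp1, encoding neuropilin 1, had per-tag ratios of 6.12 to 9.62, and Cd5, a negative regulator of T cell receptor signals, of 4.04 to 18.7. Trib2, a pseudokinase, had per-tag ratios of 3.76 to 90.9. The interleukin receptor gene Il6ra and the chemokine receptor gene Cxcr4 were higher by 4.34 to 5.62-fold and 3.26 to 10.2-fold, but they were found in 42.2% and 83.8% of neutrophil-gated cells, no less than in members (34% and 81.7%). Csf2 had 243 molecules against 8, and 40.7% of the members' molecules came from 1 cell.

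Gata3 was higher, with 893, 726, 1428 and 1419.7 CPM in tags 3, 4, 1 and 2, against 127, 212, 475 and 287 CPM in the CD8 T cells of the same tags, and Rora, a nuclear receptor linked to Th17 and type 2 lymphocytes, was the only measured gene of the Th17 list and was higher, with 700.1, 1835, 2104 and 864 CPM in tags 3, 4, 1 and 2, against 152, 246, 375 and 319 CPM in the CD8 T cells of the same tags. Of 12 measured Th1 genes, Lta was higher and Tbx21, Ifng and Cxcr6 were lower. Without the richest cells, Lta, Csf2, Klrg1, Eomes and Aurkb lost their calls against CD8 T cells. Ifng had 1400.3, 956, 1503 and 1173 CPM in tags 3, 4, 1 and 2, against 2769, 3903, 4299.8 and 2585 CPM in the CD8 T cells of the same tags.

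The cytotoxic list had 6 of 12 measured genes lower (Gzma, Gzmb, Gzmk, Nkg7, Ccl5 and Eomes) and 1 higher (Klrg1), of which Eomes and Klrg1 lost the call without the richest cells, with a median log2 ratio of -1.63. Gzmb had 873, 535, 451 and 432 CPM in tags 3, 4, 1 and 2, against 19339, 20474, 25749 and 58472 CPM in the CD8 T cells of the same tags, a ratio of summed molecules of 0.0311 (95% interval 0.0256 to 0.0375). Gzma had 1299, 1147, 150.3 and 61.7 CPM in tags 3, 4, 1 and 2, against 18546, 18281, 26249 and 21799.5 CPM in the CD8 T cells of the same tags. Nkg7, a granule protein, had per-tag ratios of 0.0216 to 0.193, and Gzmk, another granzyme, of 0.0244 to 0.258. Ccl5 had 4515, 5122, 3005 and 988 CPM in tags 3, 4, 1 and 2, against 51833, 25174, 19474 and 14490.4 CPM in the CD8 T cells of the same tags. Klrc1, which encodes the inhibitory natural killer receptor NKG2A, had 923, 1949, 0 and 679 CPM in tags 3, 4, 1 and 2, against 6697, 6698, 9399.5 and 5394 CPM in the CD8 T cells of the same tags. Pdcd1 and Havcr2 were the 2 of 9 measured inhibitory receptor genes that were called, and both were lower. Pdcd1 had 2973, 3746, 1052 and 1913 CPM in tags 3, 4, 1 and 2, against 6438, 7003, 8249.6 and 5905 CPM in the CD8 T cells of the same tags.

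Of 8 measured proliferation genes, 5 were lower (Mki67, Top2a, Ube2c, Tyms and Aurkb) and none higher. Ube2c, a mitotic ubiquitin enzyme, had 355, 497, 0 and 0 CPM in tags 3, 4, 1 and 2, against 1443, 2549, 1999.9 and 2202 CPM in the CD8 T cells of the same tags, and Aurkb, a mitotic kinase, had 19 molecules against 248, a ratio of 0.192 (95% interval 0.114 to 0.306). A single cell held 58.3% of the members' Ube2c and 42.1% of their Aurkb molecules. Also lower were Cd38, an ectoenzyme of activated cells, with per-tag ratios of 0.15 to 0.268 and 31.4% of the members' molecules in 1 cell, and Lat2, an adaptor protein, with per-tag ratios of 0.0638 to 0.265 and 22.5% in 1 cell.

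**Figure D5:**
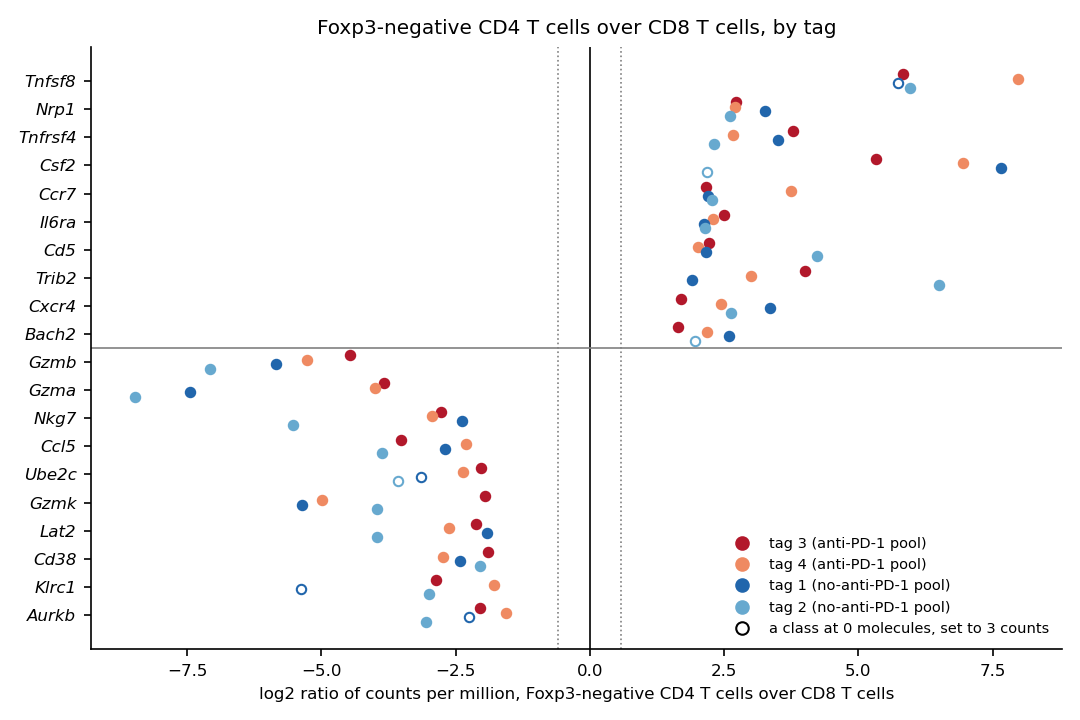
Log2 ratio of CPM in Foxp3-negative CD4 T cells over CD8 T cells for the 20 named genes, 1 point per tag, with 0 meaning equal levels. Open symbols mark a class at 0 molecules, set to 3 counts; Tnfsf8 lies farthest right in tags 3 and 4, with ratios of 56.6 and 251, and Gzmb and Gzma lie left of 0 in all 4 tags.

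Within a pool, the 2 tags were compared at 2-fold. Tag 4 over tag 3 had 17 of 221 measured genes higher (7.69%) and 26 lower (11.8%). The most different were the B cell gene Ighm, Csf2 and Xcl1, higher in tag 4, and Il13, Il10 and Spp1, lower in tag 4. In these 6 genes 1 cell held between 32.7% and 96.7% of all the members' molecules. Tag 2 over tag 1 had 12 of 128 measured genes higher (9.38%) and 26 lower (20.3%). The MHC class II pathway genes Cd74, H2-DMa and H2-Aa were higher in tag 2, with 67.1%, 30.9% and 70.3% of the members' molecules in 1 cell, beside the dendritic cell markers at 2098.6 CPM in tag 2 and 0 in tag 1. The myeloid genes Clec4e, Fcgr3 and Ccl3 were lower in tag 2; Clec4e had 123 CPM in tag 2 and 3156 CPM in tag 1, beside the neutrophil list at 12715 and 34638 CPM in the same tags.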

How the data were processed

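Transcripts of single cells were measured with the BD Rhapsody targeted system in 2 samples, each a cartridge with 2 sample tags. The authors deposited tables of molecule counts per cell and gene, made by version 1.12.1 of the BD Rhapsody pipeline for targeted panels and corrected for amplification error by its distribution-based method, per the file headers. The submitters' processing notes list Seurat 3.2.0. Which aligner and genome build were used is not given in the sources used here. The reference of tag 1 differed from that of tags 2 to 4, so the 396 genes in all tags were used, with the 2 Tigit targets of tag 1 summed.

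Counts were summed over the member cells of each tag and scaled to CPM, with exact Poisson 95% intervals, and shares of cells were given exact Clopper-Pearson intervals. Pool means weight both tags equally. For ratios, a floor of 3 counts replaced a tag at 0. Genes with fewer than 30 molecules and the 10 genes of the rule were not compared. With 1 cartridge per pool no test was made. Up to 10 called genes per direction were named, ranked by the log2 ratio of the pools or by the smallest of the 4 per-tag ratios between classes, and up to 3 within a pool; members of the gene lists were named beside them. Some genes that these rules select are not reported here. The members and lists were chosen with earlier results of these data known. No doublets were removed. Calculations used Python 3.11.15, numpy 2.4.6, pandas 2.3.3 and scipy 1.17.1. The calling rules were run on simulated Poisson counts with known changes. Those counts hold no single cells rich in a gene, so they cannot show how often such cells give false calls. The alternatives tried were other thresholds of the rule, doublet filters, leaving out each tag, other scalings, molecule minimums and folds, leaving out each gene's richest cell, and thinning to 350 molecules per cell.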

Additional observations from a re-analysis of the deposited data

Results flagged for a closer look

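The panel of tags 2 to 4 counted 72 genes that tag 1 lacked, so these genes stand outside the comparisons above. Of the 36 with at least 30 molecules in members, 4 were higher in both tags of the anti-PD-1 pool than in tag 2, with counting intervals apart. The no-anti-PD-1 pool is then tag 2 alone, with 20 members. Socs2, an inhibitor of cytokine receptor signals, had 1035 and 2255 CPM in tags 3 and 4, against 370.3 CPM in tag 2, a ratio of 4.44. It was found in 25.2% and 43.8% of the cells in tags 3 and 4, against 20% in tag 2, and in 0.512% to 1.35% of neutrophil-gated cells; without the richest cell of each tag the ratio was 5.29. Nfkbiz, a regulator of NF-kappaB targets, had 9569 and 12270 CPM in tags 3 and 4, against 7037 CPM in tag 2, a ratio of 1.55, and a ratio of 2.82 without the richest cells; at least 94.3% of neutrophil-gated cells held it. Csf3r encodes the receptor for the neutrophil growth factor G-CSF. It had 2648 and 2790.3 CPM in tags 3 and 4, against 432 CPM in tag 2, a ratio of 6.29. Without the richest cells it had 2321 and 1885 CPM in tags 3 and 4, against 128 CPM in tag 2, a ratio of 16.4. Leaving out 1 cell removes 1 of 20 members in tag 2, but 1 of 123 in tag 3 and 1 of 32 in tag 4. The higher ratios of Socs2, Nfkbiz and Csf3r without the richest cells therefore do not show a firmer difference. Csf3r was found in at least 98.9% of neutrophil-gated cells. Epcam, an epithelial surface gene, had 913 and 1070.2 CPM in tags 3 and 4, against 185 CPM (interval 38.2 to 541) in tag 2, a ratio of 5.36. A single cell held 71 of its 90 molecules in tag 3 and another 26 of 28 in tag 4, and without the richest cells the ratio was 1.10.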

How the results depend on the processing

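With 1 cartridge per pool, split by tag, and 1 tag at 16 members and 13309 molecules, depth limits every value of tags 1 and 2. The differences in share between the pools moved by less than their counting intervals under every alternative. The difference among all cells stayed between 0.71 and 1.37 points; among T cells (-3.54 to 5.89) and CD4 T cells (-9.31 to 8.18) it took both signs. The counts of called genes moved more. Against 17 higher and 6 lower between the pools, there were 5 and 1 at 2-fold, 7 and 2 with at least 100 molecules, 8 and 3 without members holding Il2ra or Ikzf2, and 13 lower with S100a8 up to 20%. Without members holding Il2ra or Ikzf2, only 3 of the 17 higher and 1 of the 6 lower genes kept their call, and the rest called were other genes. Ctsw, Cst7, Ccr8, Xcl1, Gata3, Irf4 and Lgals3 were among those that lost it. With S100a8 up to 20%, 3 of the 6 lower genes kept it. Leaving out 1 tag gave 17 to 46 higher and 9 to 35 lower, since fewer tags have to be apart. Against Foxp3-positive cells (26 and 14) there were 14 and 7 at 2-fold, and 32 to 38 higher and 19 to 38 lower without 1 tag. Against CD8 T cells (38 and 27) there were 22 and 16 at 2-fold, and 41 to 50 and 30 to 36 without 1 tag. With equal weight per cell in place of summed molecules, 10 of the 17 higher and 4 of the 6 lower genes between the pools kept the call. Against Foxp3-positive cells 17 of 26 and 13 of 14 kept it, with Il7r, Stat4 and Il18rap among those lost. Against CD8 T cells 29 of 38 and 23 of 27 kept it, with Tcf7 among those lost. Among alternatives chosen after seeing the data, separate intervals left 4 and 1 genes between the pools, and tags 3 and 4 alone gave 51 and 55 against Foxp3-positive and 63 and 53 against CD8 T cells. Of the values of the named genes under these alternatives, 224 of the pool comparison kept the call and 91 lost it in the same direction. Against Foxp3-positive cells 367 kept it and 32 lost it, and against CD8 T cells 393 kept it and 7 lost it. Directions changed for Il5 (log2 ratio -0.13) and Mki67 (-1.36) without members holding Il2ra or Ikzf2, for Igkc without cells of B cell, macrophage or high Lgals1 signal (-0.80) and without the richest cells (-0.29), and without the richest cells for Gzma (-0.30) and, against Foxp3-positive cells, Ccr6 (0.17). With median-of-ratios scaling, higher genes were 63.2% of those called between the pools in place of 73.9%. Except for the tags left out, the cause was not tested. Between the pools no paired analysis was possible, because each tag number occurs in 1 cartridge only. The comparisons with Foxp3-positive and CD8 T cells were made within each tag.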

Other observations

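Cd40lg encodes CD40 ligand, through which helper T cells act on B cells and dendritic cells, and it was counted in tags 2 to 4 alone. Foxp3-negative CD4 T cells had 731 and 1185 CPM in tags 3 and 4, against 1790.0 CPM in tag 2. It was found in 29.3% and 46.9% of the members of tags 3 and 4, against 35% in tag 2, so the pools overlapped in share. In Foxp3-positive CD4 T cells it had 4 molecules in 3 cells of tag 3 and none in tags 4 and 2. No CD8 T cell and no neutrophil-gated cell of these tags held a molecule. Tox, a transcription factor of chronically stimulated T cells, was found in 14.6% and 15.6% of the members of tags 3 and 4, against 10% in tag 2; among CD8 T cells the shares were 26.9% and 28.8% in tags 3 and 4, against 0 of 16 cells in tag 2. Egr2, which is induced by antigen receptor signals, was found in 22.0% and 37.5% of the members of tags 3 and 4, against 10% in tag 2, and in 15.6%, 19.3% and 24.1% of the neutrophil-gated cells of tags 3, 4 and 2. S100a4, a calcium-binding protein gene of memory and effector T cells, was found in 53.7% and 65.6% of the members of tags 3 and 4, against 45% in tag 2, but its level was 13922 and 12308 CPM in tags 3 and 4, against 15369 CPM in tag 2. These 4 genes were named after their values were seen.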
